A study of Homo sapiens with 27 samples.

Results

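The 44 genes described here make, crosslink, cut or switch on the outermost layers of the epidermis. They were listed by gene symbol, with earlier results of these data known, and all 44 were found among the 24566 genes of one table of read counts. The table held 27 RNA-seq libraries of 2 established human tumour lines, A431 (an epidermoid carcinoma line of squamous origin) and MDA-MB-231 (a breast adenocarcinoma line). A431 cells were untreated, or received vehicle control, Compound Kushen Injection (CKI, a water extract of medicinal plant roots) at 1 mg/ml, doxorubicin (a DNA-damaging anthracycline), or CKI with doxorubicin. MDA-MB-231 cells were untreated, or received CKI at 1 mg/ml, 5-FU (5-fluorouracil, which blocks thymidylate synthesis) at 10 µg/ml, or CKI with 5-FU. Every one of the 9 groups had 3 libraries of total RNA taken at 48 h, described by the submitters as biological replicates. What the vehicle contained is not stated, and the doxorubicin doses in the labels are not tied to libraries, so none is printed. Each line is a tumour line grown in serum, so the groups describe that line and not normal keratinocytes.

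As keratinocytes leave the basal layer they stop dividing and replace the plasma membrane from inside with a cornified envelope, a shell of proteins joined by transglutaminases. Involucrin (IVL), envoplakin (EVPL), periplakin (PPL), cystatin A (CSTA), the small proline-rich proteins (SPRR) and the late cornified envelope proteins (LCE) are laid into that shell, and filaggrin (FLG) packs keratin filaments beneath it. Kallikreins (KLK), secreted serine proteases held in check by SPINK inhibitors, later cut the junctions that hold dead cells together. Lipoxygenases and the transporter ABCA12 supply the lipids outside the shell. Transcription factors including GRHL1, GRHL3, OVOL1 and ZNF750 act upstream of many of these genes. Many of the structural genes lie side by side: 17 members sat in the epidermal differentiation complex of chromosome 1 (chr1:152126071-153589462, GRCh37), with the 6 SPRR members in chr1:152956557-153078660 and the 5 S100 members in chr1:153330330-153589462. The 7 KLK members lay together at chr19:51446559-51568371.

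The total count per library ranged from 17757206 to 21756536 in A431 and from 19871048 to 22809339 in MDA-MB-231. Levels are given as CPM, counts scaled by TMM to libraries of one common size, as the mean ± SD of n = 3 libraries or as the 3 values in replicate order. Among the squamous epithelial markers, such as KRT5, KRT14, CDH1 and SFN, 8 of 8 reached 1 CPM in every A431 group, and their summed level was 8750 to 9740 CPM in the untreated libraries, 6740 to 8080 with vehicle, 7510 to 7980 with CKI, 7500 to 7700 with doxorubicin and 6710 to 7290 with both, against 144 to 581 CPM in MDA-MB-231. Doxorubicin called 2 of these 8 markers higher and 3 lower. The summed level of 6 markers of mesenchymal-like breast lines, such as VIM, ZEB1 and CDH2, was 858 to 906 CPM in untreated A431, 1040 to 1160 with vehicle, 1580 to 1650 with CKI, 1240 to 1290 with doxorubicin and 1810 to 1900 with both, against 2020 to 4160 CPM in MDA-MB-231, and doxorubicin called 4 of the 6 higher. In A431, the summed level of 6 immune markers was 8.76 to 10.3 CPM untreated, 4.92 to 6.85 with vehicle, 18.5 to 19.2 with CKI, 10.5 to 11.9 with doxorubicin and 14 to 14.6 with both. The leukocyte marker PTPRC had no count in the untreated, vehicle and CKI groups and reached a mean of 1.62 CPM with CKI and doxorubicin. The summed endothelial markers lay between 11 and 47.6 CPM, the fibroblast markers between 13.8 and 63.2 CPM and the melanocyte markers between 1.15 and 8.95 CPM. The part of these markers in the results was not tested. The vehicle libraries differed more among themselves than the libraries of other A431 groups, with a chi-square per degree of freedom over genes of 9.9 to 28.3 against 1.83 to 5.46. The fold changes of all genes in vehicle against untreated cells went with GC content (Spearman's rho = -0.58 across genes, which are not independent), and those of CKI against untreated cells did so less (rho = -0.1). Replicate 1 of untreated MDA-MB-231 stood apart from the other 2, with a chi-square per degree of freedom of 70.8 and 81.8 against 2.65 between those 2, and the counts of calls that use it, with the single members described for MDA-MB-231, are also given without it.

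Promoters are shown first for 5 members of the SPRR and IVL region, where the letters of a pattern bound by AP-1 were found. A script searched the 250 bases before each gene's start (RefSeq, GRCh38.p14) on both strands for the letters of 4 motifs, and a promoter was found for 35 of the 44 members and for 27305 genes in all. The AP-1 letters TGANTCA, a pattern bound by JUN and FOS dimers and long studied in the involucrin and SPRR promoters, were present in 11 of 35 members (31.4%) and in 8.06% of all genes. The GRHL letters AACCNGTT were present in 4 of 35 members (11.4%) and in 1.85% of all genes, TATAAA in 14 of 35 (40%) and in 13% of all genes, and the ZNF750 letters CCNNAGGC in 11 of 35 (31.4%) and in 27.3% of all genes. The 4 patterns spell different letters, so no match was counted under more than 1 of them. The 11 members with the AP-1 letters were ALOXE3, FLG, IVL, KRTDAP, RPTN, S100A12, SBSN, SPRR1A, SPRR1B, SPRR2A and SPRR3. Promoters of 5 of them are printed 5′ to 3′ on the strand of the gene, ending at the base before its start, with the AP-1 letters in capitals. The IVL promoter was chr1:152908296-152908545 (plus strand), with the match starting at -123 from the gene start. The SPRR1A promoter was chr1:152983831-152984080 (plus strand), with its match at -108, and the SPRR1B promoter was chr1:153030953-153031202 (plus strand), with matches at -141 and -111. The SPRR2A promoter was chr1:153057513-153057762 (minus strand), with its match at -197, and the SPRR3 promoter was chr1:153001499-153001748 (plus strand), with its match at -170.
IVL: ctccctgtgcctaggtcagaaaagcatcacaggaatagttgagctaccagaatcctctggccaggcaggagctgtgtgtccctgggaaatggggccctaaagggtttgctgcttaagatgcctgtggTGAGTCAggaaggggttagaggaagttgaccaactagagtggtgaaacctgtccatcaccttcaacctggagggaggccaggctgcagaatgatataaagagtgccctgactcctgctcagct
SPRR1A: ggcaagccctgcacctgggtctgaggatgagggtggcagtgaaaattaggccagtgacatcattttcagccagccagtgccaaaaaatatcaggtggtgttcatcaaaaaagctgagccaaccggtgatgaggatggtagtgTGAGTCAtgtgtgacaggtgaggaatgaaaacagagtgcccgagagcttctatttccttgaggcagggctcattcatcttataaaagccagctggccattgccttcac
SPRR1B: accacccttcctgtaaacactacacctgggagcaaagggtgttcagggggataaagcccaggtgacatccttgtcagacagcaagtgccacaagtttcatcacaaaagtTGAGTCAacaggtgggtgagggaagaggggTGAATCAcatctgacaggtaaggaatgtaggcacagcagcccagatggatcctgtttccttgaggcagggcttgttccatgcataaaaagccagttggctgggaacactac
SPRR2A: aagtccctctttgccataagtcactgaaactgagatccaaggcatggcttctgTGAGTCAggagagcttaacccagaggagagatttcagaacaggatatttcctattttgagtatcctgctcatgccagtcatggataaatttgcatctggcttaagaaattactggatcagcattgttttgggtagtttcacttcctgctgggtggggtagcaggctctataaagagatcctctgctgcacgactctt
SPRR3: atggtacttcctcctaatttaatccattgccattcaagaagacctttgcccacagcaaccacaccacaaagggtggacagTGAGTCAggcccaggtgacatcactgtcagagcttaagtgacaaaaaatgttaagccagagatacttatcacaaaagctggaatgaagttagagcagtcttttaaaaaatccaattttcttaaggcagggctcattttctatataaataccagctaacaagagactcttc
A match describes the letters and not binding. IVL, SPRR1A, SPRR2A and SPRR3 also held TATAAA.

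In untreated A431 cells 31 of the 44 members averaged at least 1 CPM, 21 at least 10 CPM and 8 at least 100 CPM, and 7 stayed under 1 CPM in every A431 group. Per length of transcript, as RPKM (the CPM divided by the length in kilobases), the leading members were the skin calmodulin-like protein CALML5 at 760.0 ± 38.6 RPKM (SD, n = 3), S100A14 at 725 ± 32.3 and S100A9 at 571 ± 19. The protease inhibitor CSTA followed at 213 ± 4.97 RPKM, S100A8 at 170.0 ± 19.3, KLK10 at 125 ± 10.6 and S100A7 at 122 ± 2.4. CALML5 and S100A14 differed by less than 1 SD of CALML5, and KLK10 and S100A7 by less than 1 SD of KLK10, so neither order is resolved. Involucrin stood at 7.89 ± 0.67 RPKM and filaggrin at 0.0278 ± 0.00552 RPKM. The group with the highest mean was CKI with doxorubicin for 18 members, CKI for 8, untreated for 8, doxorubicin for 6 and vehicle for 4.

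A change was called where the Benjamini-Hochberg adjusted p of edgeR's quasi-likelihood test, taken over all genes, was under 0.05 and the log2 fold change exceeded 1 in size, and 41 of the 44 members had enough counts to be tested in A431 (LCE3D, LCE3E and SPINK6 did not). TGM3, TGM5 and HRNR, with 1 or 2 counts over the untreated libraries, entered the test only through treated libraries, so the direction of their calls against untreated cells is set by that filter. KRTDAP (3, 2 and 3 counts untreated), FLG (5, 6 and 7), SPRR2E (6, 4 and 10) and S100A12 (11, 6 and 17) also passed it through other groups. This largely sets the direction of their calls against untreated cells too. CKI against untreated cells called 15 of 41 members, 8 higher and 7 lower, beside 22.4% of the 15881 genes tested (12% higher and 10.4% lower), and 11 higher and 5 lower with offsets for GC content and transcript length. Doxorubicin against untreated cells called 22 of 41, 11 higher and 11 lower, beside 37.3% of all genes (23% higher and 14.3% lower), and 15 higher and 8 lower when scaled by library size alone, which shifts the median of all genes by 0.34. Against untreated cells the calls of each single agent were split about evenly by direction, a split that the filter helped to make. With at least 10 counts in every library it was 5 higher and 5 lower for CKI and 6 higher and 10 lower for doxorubicin. The median log2 fold change of the members was -0.07 for CKI and 0.20 for doxorubicin, beside 0.003 and 0.02 for all genes. Vehicle against untreated cells called 6 of 41, all higher, beside 2.54% of all genes (1.05% higher and 1.5% lower). These comparisons share the 3 untreated libraries. With vehicle as the control, CKI called 15 of 41, 4 higher and 11 lower (19.5% of all genes, 11.3% higher and 8.22% lower), and doxorubicin called 21, 7 higher and 14 lower (38.5% of all genes, 23.7% higher and 14.8% lower), or 9 higher and 11 lower when scaled by library size alone. With at least 10 counts in every library these splits were 2 higher and 9 lower for CKI and 2 higher and 12 lower for doxorubicin. In bulk RNA, fewer cells of a kind and less RNA per cell cannot be told apart.

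The combined treatment gave the members more calls in the upward direction in the comparisons made, none of which set it against vehicle. CKI with doxorubicin against doxorubicin alone called 15 of 41 members, 12 higher and 3 lower, where 14.9% of all genes were called, 6.89% higher and 8.03% lower. With GC and length offsets the split was 14 higher and 1 lower, and the members' median log2 fold change was 0.58 beside 0.03 for all genes. Against CKI alone it called 23 of 41, 17 higher and 6 lower (25.7% of all genes, 16.6% higher and 9.06% lower), with a median of 0.71 beside 0.06. HRNR, TGM3, KRTDAP, SPRR3 and S100A12, called higher there, had at most 8 counts in any CKI library. They passed the filter through other groups, which largely sets that direction. Among members with at least 10 counts in every library the split against CKI was 10 higher and 5 lower. Against untreated cells the combined treatment called 26 of 41, 19 higher and 7 lower (35.5% of all genes, 21.7% higher and 13.8% lower), with a median of 0.89 beside 0.05. With at least 10 counts in every library that split was 14 higher and 5 lower. Some members stood near that level with vehicle alone. SPRR1B was 18.4, 18 and 22.3 CPM with vehicle and 20.4, 20.4 and 23.4 with both agents, while SPRR1A was 3.28, 3.06 and 3.76 against 23.8, 24.2 and 23.9. The map of all 44 members by library shows SPRR members among these rises, and calcium-binding and kallikrein members that moved the other way.

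**Figure D1:**
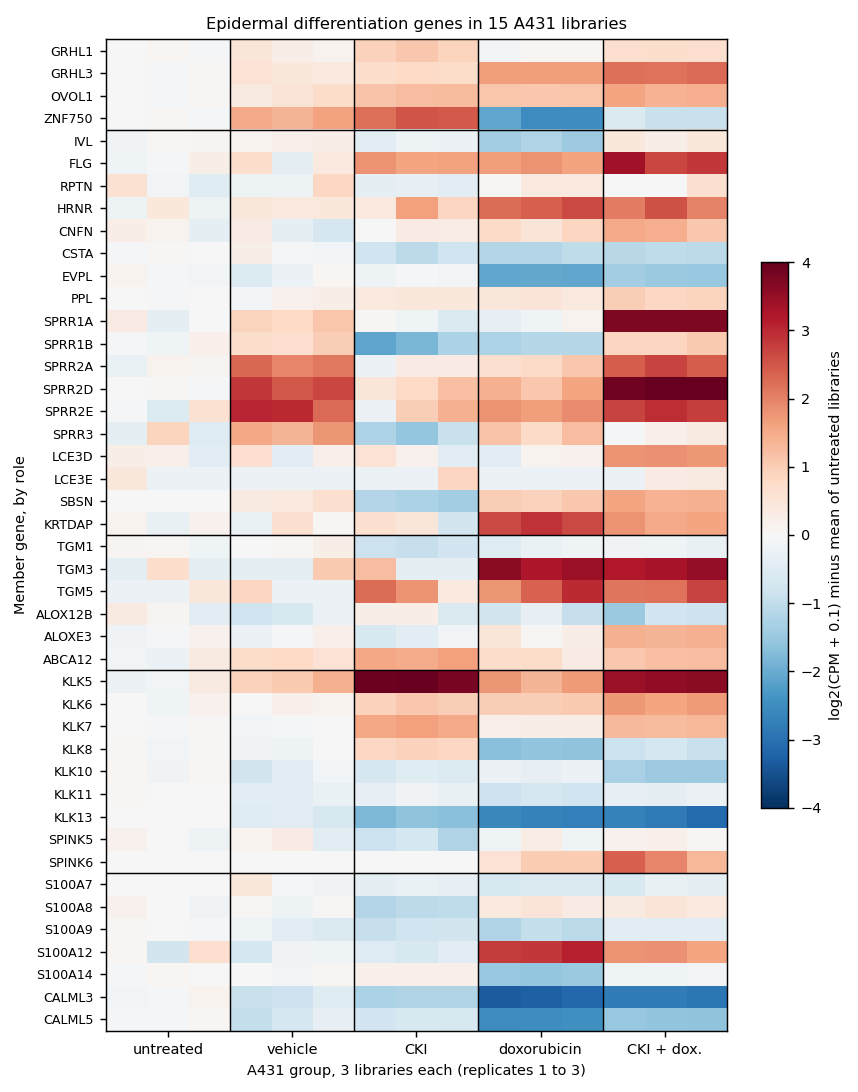
Level of each of the 44 members in the 15 A431 libraries, as log2(CPM + 0.1) minus the mean of the 3 untreated libraries, with the colour scale ending at -4 and 4 and the genes ordered by role. SPRR1A, SPRR2A, SPRR2D and SPRR2E are high in the 3 libraries of CKI with doxorubicin, CALML3 and KLK13 are low in all 6 libraries that received doxorubicin, and KLK5 is high in all 6 that received CKI.

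Among the transcription factors, against untreated cells, CKI went with more ZNF750 and OVOL1 and doxorubicin with more GRHL3 and OVOL1 but less ZNF750. ZNF750, a zinc finger protein needed for terminal differentiation, was 10.3, 10.7 and 10.1 CPM in the untreated libraries, 29.9, 26.6 and 32 with vehicle, 47.7, 59.8 and 57.8 with CKI, 2.4, 1.72 and 1.79 with doxorubicin and 6.94, 5.56 and 5.52 with both. No group overlapped another, and the order from lowest to highest was doxorubicin, both agents, untreated, vehicle and CKI. Its log2 fold change (with SE and adjusted p from edgeR, the form used in brackets from here on) was 2.34 (SE 0.10, adjusted p = 3.45e-15) for CKI against untreated cells and -2.44 (SE 0.16, adjusted p = 2.21e-12) for doxorubicin against untreated cells. Vehicle alone raised it, by 1.53 (SE 0.11, adjusted p = 2.45e-10), and against vehicle the CKI value was 0.81 (SE 0.09, adjusted p = 4.18e-08), which did not pass the fold threshold. Adding CKI to doxorubicin raised it by 1.64 (SE 0.17, adjusted p = 1.58e-08), and both agents stayed under CKI alone (-3.14, SE 0.11, adjusted p = 7.05e-17). Its exons overlap those of TBCD, and the libraries were not stranded, so the reads of the pair cannot be told apart where they overlap. Exons of another gene overlap those of 13 members in all, and the same limit holds for each. Besides ZNF750, FLG and KLK8 they are GRHL1, OVOL1, CALML3, KLK5, KLK6, KLK10, SPINK5, TGM3, ALOX12B and ABCA12.

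GRHL3, a grainyhead-like factor that acts late in barrier formation, gave a different order. It was 20.0, 18.8 and 20.6 CPM untreated, 29.7, 26.6 and 25.7 with vehicle, 32.5, 34.1 and 32.7 with CKI, 63.1, 63.5 and 62.8 with doxorubicin and 91.3, 89.9 and 95.5 with both agents. The 3 libraries of each treated group all lay above the untreated ones, and those with both agents were the highest. The increase passed the test with doxorubicin (1.62, SE 0.07, adjusted p = 8.92e-16) and with both agents (2.20, SE 0.07, adjusted p = 4e-18), and the CKI value of 0.68 (SE 0.07) fell short of the fold threshold. OVOL1, a zinc finger repressor of keratinocyte proliferation, was 35.2, 33.1 and 36 CPM untreated, 44.8, 49.6 and 57.8 with vehicle, 77.2, 82.7 and 82.8 with CKI, 75.5, 73.3 and 75.1 with doxorubicin and 103, 91.6 and 94.3 with both. It was higher than untreated with CKI (1.15, SE 0.08, adjusted p = 4.5e-12), with doxorubicin (1.05, SE 0.08, adjusted p = 1.63e-11) and with both (1.45, SE 0.08, adjusted p = 4.68e-14), but against vehicle the CKI value was 0.58 (SE 0.07) and was not called. Doxorubicin against vehicle did not call OVOL1 either. Its doxorubicin call against untreated cells was lost in 2 of 17 alternatives, with a lowest value of 0.483. GRHL1, which sets desmosomal cadherin genes in skin, was 20.7, 21.9 and 19.9 CPM untreated, 28.9, 24.9 and 23.2 with vehicle, 39.9, 44.2 and 39 with CKI, 19.4, 21.9 and 21.8 with doxorubicin and 32.9, 34.3 and 33.1 with both, and no A431 comparison called it. Its CKI value was 0.91 (SE 0.08). None of these 4 factors was called in the interaction of the 2 agents.

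**Figure D2:**
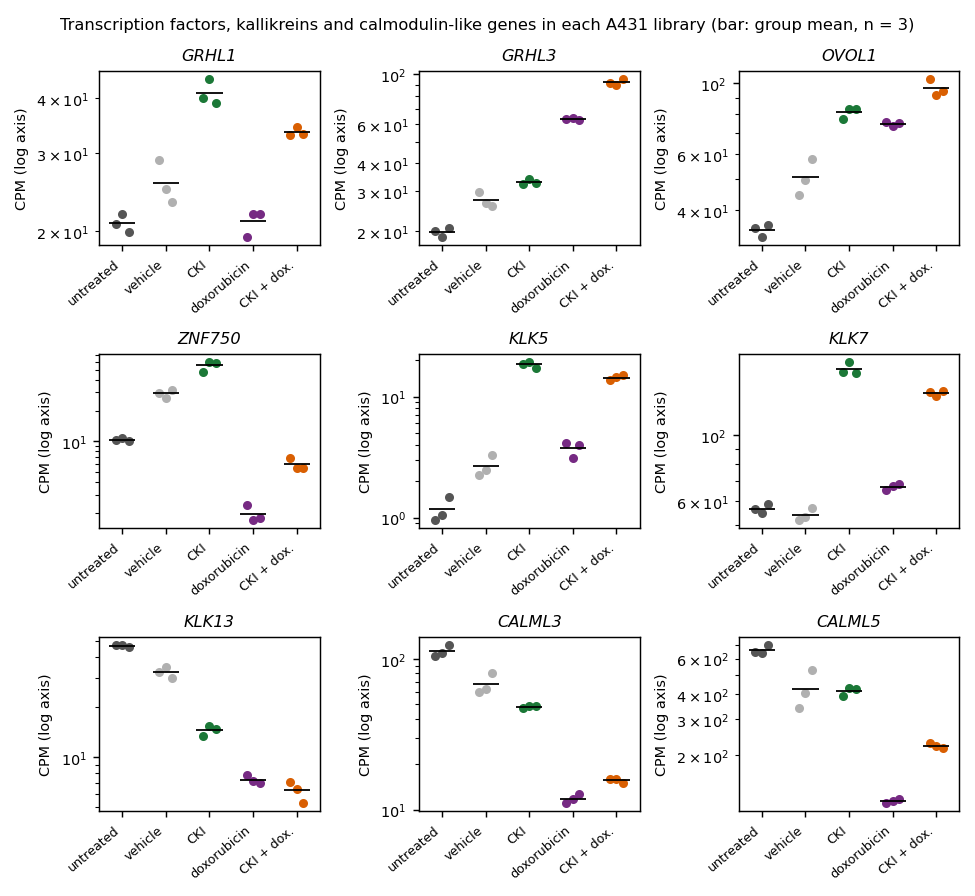
CPM in each of the 15 A431 libraries (points) for the transcription factors GRHL1, GRHL3, OVOL1 and ZNF750, the kallikreins KLK5, KLK7 and KLK13 and the calmodulin-like genes CALML3 and CALML5. ZNF750 is lowest with doxorubicin alone, GRHL3 is highest with both agents, and KLK13 and CALML3 are low in both groups given doxorubicin.

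Of the 6 SPRR genes, whose proteins cross-bridge the envelope, 5 were higher with both agents than with doxorubicin alone. SPRR1A (chr1:152956557-152958290, GRCh37) was 2.16, 1.32 and 1.74 CPM in untreated cells, 3.28, 3.06 and 3.76 with vehicle, 1.76, 1.51 and 1.11 with CKI, 1.35, 1.52 and 1.9 with doxorubicin and 23.8, 24.2 and 23.9 with both agents. No library of the first 4 groups exceeded 3.76 CPM, and none with both agents was under 23.8 CPM. The log2 fold change of both agents was 3.94 (SE 0.14, adjusted p = 3.16e-16) against doxorubicin, 4.07 (SE 0.15, adjusted p = 1.2e-16) against CKI and 3.77 (SE 0.15, adjusted p = 1.96e-16) against untreated cells. Against untreated cells neither agent alone moved it past the thresholds, with log2 fold changes of -0.30 (SE 0.22) for CKI and -0.18 (SE 0.22) for doxorubicin. Against vehicle it was called lower with each agent. Its values over the alternatives were -1.446 to -1.055 for CKI and -1.524 to -0.807 for doxorubicin, whose call was lost in 2 of 16.

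SPRR1B (chr1:153003679-153005376, GRCh37) moved down with each agent and back up with both. It was 10.9, 9.87 and 13 CPM untreated, 18.4, 18 and 22.3 with vehicle, 2.52, 3.07 and 4.61 with CKI, 4.65, 5.06 and 5.03 with doxorubicin and 20.4, 20.4 and 23.4 with both. It was lower with CKI (-1.80, SE 0.16, adjusted p = 1.23e-09) and with doxorubicin (-1.24, SE 0.15, adjusted p = 1.31e-07) than in untreated cells. With both agents it was higher than with doxorubicin (2.15, SE 0.14, adjusted p = 7.68e-12) and than with CKI (2.71, SE 0.15, adjusted p = 3.06e-13), and its value against untreated cells was 0.91 (SE 0.13), which was not called. SPRR3 was 0.36, 0.993 and 0.311 CPM untreated, 1.61, 1.41 and 1.91 with vehicle, 0.151, 0.104 and 0.222 with CKI, 1.2, 0.911 and 1.28 with doxorubicin and 0.469, 0.58 and 0.659 with both. CKI lowered it against untreated cells (-1.87, SE 0.54, adjusted p = 0.00374) and against vehicle (-3.41, SE 0.43, adjusted p = 2.4e-07), and unlike the other SPRR members it was not called between both agents and doxorubicin (-0.96, SE 0.34). Without untreated replicate 2, the CKI value against untreated cells was -1.13 (adjusted p = 0.108 by edgeR) and was not called.

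The SPRR2 members SPRR2A (chr1:153028596-153029988), SPRR2D (chr1:153012208-153014407) and SPRR2E (chr1:153065611-153078660, all GRCh37) are near-identical copies, so the split of reads among them is uncertain. Over the whole transcript SPRR2A shared 94% of bases with SPRR2D and 92.8% with SPRR2E, with unbroken shared runs of 142 and 171 bases, and SPRR1A and SPRR1B shared 79.1%. SPRR2A was 3.66, 4.85 and 4.78 CPM untreated, 22, 17.2 and 19.1 with vehicle, 3.68, 5.57 and 5.55 with CKI, 6.84, 7.6 and 9.49 with doxorubicin and 23.9, 29.4 and 24.1 with both. SPRR2D was 1.8, 1.82 and 1.68 CPM untreated, 13.2, 10.3 and 11.7 with vehicle, 2.52, 3.12 and 4.16 with CKI, 4.85, 3.8 and 5.44 with doxorubicin and 27.7, 30.0 and 32.2 with both. SPRR2E was 0.36, 0.221 and 0.621 CPM untreated, 3.8, 3.67 and 2.18 with vehicle, 0.302, 0.832 and 1.17 with CKI, 1.55, 1.42 and 1.64 with doxorubicin and 3, 3.57 and 3.09 with both. All 3 were higher with vehicle than without, and all 3 were again high with both agents.

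The vehicle increase was 2.15 (SE 0.16, adjusted p = 5.67e-10) for SPRR2A, 2.74 (SE 0.18, adjusted p = 4.91e-11) for SPRR2D and 3.03 (SE 0.36, adjusted p = 1.33e-06) for SPRR2E, and the same 3 were higher in both GC-adjusted and unadjusted fits. Their direction under single agents turned with the choice of control. Against untreated cells the CKI values were 0.08 (SE 0.19), 0.81 (SE 0.22) and 0.86 (SE 0.48), none of them called, and against vehicle they were -2.07 (SE 0.15), -1.94 (SE 0.15) and -2.17 (SE 0.31), all called lower. Doxorubicin likewise gave 0.79 (SE 0.17), 1.35 (SE 0.20) and 1.90 (SE 0.41) against untreated cells and -1.36 (SE 0.14), -1.39 (SE 0.14) and -1.14 (SE 0.27) against vehicle. Both agents against doxorubicin raised them by 1.73 (SE 0.14, adjusted p = 1.88e-10), 2.71 (SE 0.13, adjusted p = 3.37e-14) and 1.10 (SE 0.26, adjusted p = 0.000877), a comparison that uses neither control.

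**Figure D3:**
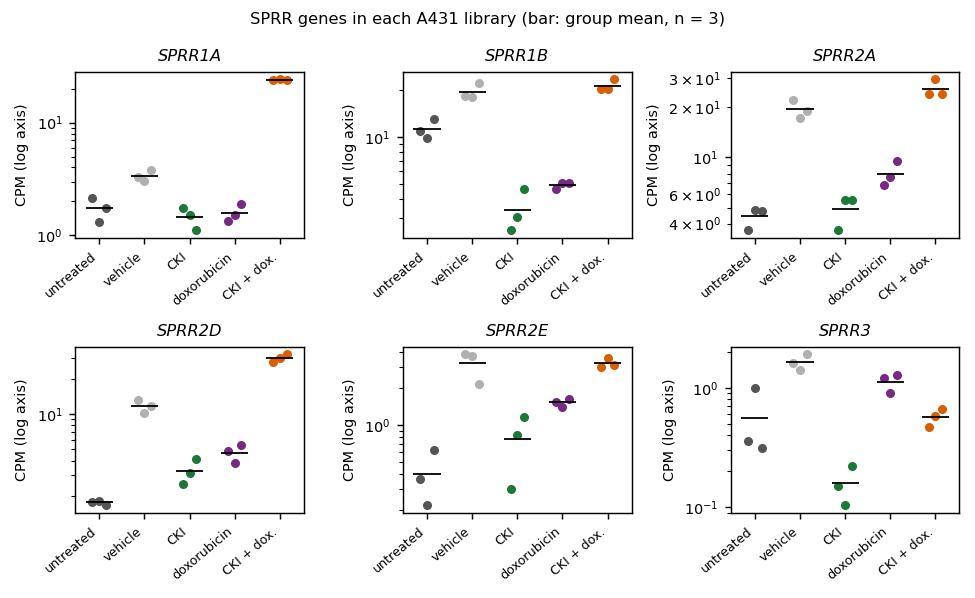
CPM of the 6 SPRR members in the 15 A431 libraries (points, log axis), by treatment group. SPRR1A and SPRR2D are highest in the 3 libraries with both agents, SPRR2A, SPRR2D and SPRR2E also stand high with vehicle, and SPRR3 is lowest with CKI.

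Of the other envelope and cornified layer proteins, involucrin was lowered by doxorubicin and raised by CKI on top of doxorubicin. IVL (chr1:152881022-152884362, GRCh37), the early glutamine-rich scaffold of the envelope, was 15.4, 17.4 and 18.1 CPM untreated, 18.6, 19.7 and 20.4 with vehicle, 12.5, 14.7 and 14.3 with CKI, 6.39, 7.24 and 6.1 with doxorubicin and 22.5, 20.0 and 22.7 with both. The doxorubicin libraries were the lowest and lay under every other group. The log2 fold change was -1.42 (SE 0.10, adjusted p = 2.12e-11) for doxorubicin and 1.76 (SE 0.10, adjusted p = 7.57e-13) for both agents against doxorubicin, and the CKI value of -0.37 (SE 0.10) was under the fold threshold. FLG (chr1:152274641-152297715, GRCh37) was 0.3, 0.331 and 0.435 CPM untreated, 0.633, 0.251 and 0.491 with vehicle, 1.46, 1.25 and 1.28 with CKI, 1.35, 1.47 and 1.28 with doxorubicin and 4.55, 2.8 and 3.14 with both. It was higher with CKI (1.82, SE 0.36, adjusted p = 0.000114), with doxorubicin (1.88, SE 0.36, adjusted p = 5.56e-05) and with both (3.27, SE 0.30, adjusted p = 1.38e-09), all at low levels and with exons that overlap the antisense gene FLG-AS1. With 5, 6 and 7 untreated counts FLG passed the filter through other groups, which largely sets that direction. SBSN (suprabasin), a secreted suprabasal protein, was 5.4, 5.57 and 5.59 CPM untreated, 7.13, 7.28 and 8.67 with vehicle, 2.37, 2.24 and 2.05 with CKI, 10.9, 10.6 and 11.7 with doxorubicin and 16.8, 14.5 and 15 with both. CKI alone lowered it (-1.38, SE 0.14, adjusted p = 1.09e-08), both agents raised it (1.47, SE 0.11, adjusted p = 1.56e-11), and doxorubicin alone gave 0.96 (SE 0.11), not called. KRTDAP, a small secreted differentiation protein, was 0.18, 0.11 and 0.186 CPM untreated, 0.115, 0.301 and 0.164 with vehicle, 0.302, 0.26 and 0.0555 with CKI, 1.5, 1.82 and 1.49 with doxorubicin and 0.797, 0.628 and 0.659 with both. Doxorubicin raised it from 3, 2 and 3 untreated counts (3.25, SE 0.41, adjusted p = 2.03e-07), a direction largely set by the filter. The addition of CKI lowered it from there (-1.16, SE 0.29, adjusted p = 0.00121).

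EVPL, a plakin, averaged 280.0 ± 27.2 CPM untreated, 256 ± 11.6 with CKI, 66.7 ± 1.06 with doxorubicin and 101 ± 4.71 with both, and doxorubicin lowered it (-2.12, SE 0.10, adjusted p = 1.59e-14). PPL, its partner in the envelope, averaged 310.0 ± 10.3 CPM untreated and 580.0 ± 34.7 with both agents, and was called in no A431 comparison. CSTA averaged 159 ± 3.69 CPM untreated, 86 ± 8.05 with CKI and 73 ± 5.06 with doxorubicin, and doxorubicin lowered it (-1.17, SE 0.08, adjusted p = 9.98e-12). CNFN (cornifelin) averaged 2.38 ± 0.57 CPM untreated and 6.16 ± 0.956 with both agents, a called rise (1.35, SE 0.20, adjusted p = 2.9e-06). RPTN (repetin) stayed between 0.35 and 0.608 CPM in the 5 group means and was called in none. HRNR (hornerin) had 1 count over the 3 untreated libraries against 8 with CKI and 31 with doxorubicin, ratios of 7.33 (exact 95% interval 0.983 to 325) and 32.6 (5.43 to 1330), where the intervals cover counting error only. Its CKI call was lost in 10 of 15 alternatives. LCE3D had 2 counts untreated and 23 with both agents (ratio 11.6, interval 2.87 to 102), and LCE3E stayed at or below a mean of 0.037 CPM in every A431 group. By count, 16 of the 18 envelope and cornified layer members could be tested, of which 7 were higher and 1 lower with both agents against doxorubicin.

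Doxorubicin lowered the main calcium-binding members of this line. CALML3 was 105, 110.0 and 124 CPM untreated, 60.2, 63 and 80.5 with vehicle, 47.3, 48.4 and 49 with CKI, 11.1, 11.7 and 12.7 with doxorubicin and 16, 16 and 15 with both. CALML5, which binds transglutaminase in skin, was 646, 643 and 703 CPM untreated, 343, 407 and 527 with vehicle, 416 ± 20.2 (mean ± SD) with CKI, 116, 118 and 121 with doxorubicin and 230.0, 221 and 216 with both. In both genes every doxorubicin library lay under every library without it. Doxorubicin lowered CALML3 (-3.30, SE 0.10, adjusted p = 2.8e-18) and CALML5 (-2.54, SE 0.10, adjusted p = 2.44e-16). CKI lowered CALML3 (-1.30, SE 0.09, adjusted p = 5.22e-12), a call that was lost against vehicle (-0.58) and with GC and length offsets (-0.99), and gave -0.74 (SE 0.09) for CALML5. S100A14 averaged 765 ± 34 CPM untreated, 878 ± 7.18 with CKI, 268 ± 3.99 with doxorubicin and 685 ± 14.2 with both, and was lower with doxorubicin (-1.57, SE 0.06, adjusted p = 4.75e-17) and higher when CKI was added (1.39, SE 0.06, adjusted p = 1.63e-15).

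The alarmins S100A8 and S100A9, whose proteins pair as calprotectin, were each called lower against untreated cells under 1 of the single agents, and neither call held under every alternative. S100A8 averaged 69.5 ± 7.88 CPM untreated, 32.8 ± 1.96 with CKI, 91.7 ± 5.97 with doxorubicin and 92.8 ± 4.82 with both, and CKI lowered it (-1.15, SE 0.08, adjusted p = 2.35e-11), to -0.82 and no call with GC and length offsets. S100A9 averaged 327 ± 10.9 CPM untreated, 187 ± 11.6 with CKI, 155 ± 14.4 with doxorubicin and 244 ± 2.27 with both, and doxorubicin lowered it (-1.13, SE 0.08, adjusted p = 1.78e-11), to -0.76 and no call against vehicle, -0.79 when scaled by library size alone and -0.96 among genes with at least 10 counts in every library. S100A12, another member of that family, one mainly known from neutrophils, was 0.66, 0.331 and 1.06 CPM untreated, 0.345, 0.552 and 0.545 with vehicle, 0.403, 0.364 and 0.444 with CKI, 4.9, 5.06 and 6.15 with doxorubicin and 2.39, 2.46 and 2.08 with both. The 6 libraries with doxorubicin lay above all others. Doxorubicin raised S100A12 from 11, 6 and 17 untreated counts (2.94, SE 0.25, adjusted p = 2.22e-10). It passed the filter through the groups given doxorubicin, which largely sets that direction. Adding CKI lowered it from there (-1.18, SE 0.19, adjusted p = 8.85e-06). Of the 4 immune markers tested, doxorubicin called 2 higher and 2 were not called. PTPRC averaged 1.35 CPM in the doxorubicin group and 0 in the untreated one, CD14 7.52 against 7.74 and ITGAX 1.21 against 1.54. Any link of these markers to S100A12 was not tested. S100A7 (psoriasin) had group means between 34.5 and 56 CPM and was called in no A431 comparison.

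Among the transglutaminases, the enzymes that crosslink the envelope, TGM1 was called in no comparison with untreated cells and the scarce TGM3 and TGM5 were higher with doxorubicin. TGM1 (chr14:24718320-24733638, GRCh37) was 10.2, 9.93 and 8.38 CPM untreated, 9.61, 9.89 and 11.2 with vehicle, 5.14, 4.94 and 5.55 with CKI, 6.79, 7.8 and 8.41 with doxorubicin and 8.67, 8.31 and 7.75 with both. The CKI libraries were the lowest, at a log2 fold change of -0.94 (SE 0.12) against untreated cells, not called, and -1.07 (SE 0.12, adjusted p = 2.75e-08) against vehicle. TGM3 was 0, 0.11 and 0 CPM untreated, 0, 0 and 0.164 with vehicle, 0.202, 0 and 0 with CKI, 1.45, 1.11 and 1.28 with doxorubicin and 1.08, 1.16 and 1.37 with both. Over the 3 libraries it had 2 counts untreated and 76 with doxorubicin (ratio 39.9, exact 95% interval 10.7 to 336), and TGM5 had 1 untreated, 16 with CKI (ratio 14.7, interval 2.28 to 615) and 32 with doxorubicin (ratio 33.6, interval 5.62 to 1370). The TGM5 call with CKI was lost without untreated replicate 2 or without CKI replicate 1.

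All 3 lipid members were called with both agents against untreated cells, ABCA12 and ALOXE3 higher and ALOX12B lower. ABCA12, the transporter that loads lamellar granules, averaged 4.1 ± 0.927 CPM untreated, 6.64 ± 0.495 with vehicle, 12.1 ± 0.658 with CKI, 6.19 ± 0.919 with doxorubicin and 9.26 ± 0.49 with both. CKI raised it against untreated cells (1.49, SE 0.14, adjusted p = 1.86e-09), the value against vehicle was 0.77 (SE 0.13), not called, and both agents raised it against untreated cells (1.16, SE 0.14, adjusted p = 1.35e-07). ALOXE3, a lipoxygenase that acts on barrier ceramides after ALOX12B, averaged 2.86 ± 0.336 CPM untreated, 3.47 ± 0.556 with doxorubicin and 7.67 ± 0.248 with both, and was higher with both agents than with doxorubicin (1.17, SE 0.15, adjusted p = 2.78e-07) and than in untreated cells (1.41, SE 0.16, adjusted p = 2.32e-08). ALOX12B averaged 0.997 ± 0.292 CPM untreated and 0.44 ± 0.138 with both agents, a called decrease (-1.20, SE 0.37, adjusted p = 0.0057). With both agents against untreated cells, the ALOX12B call was lost in 4 of 15 alternatives and the ABCA12 call in 2 of 16.

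The kallikreins split, with KLK5 and KLK7, the pair best known from the stratum corneum, higher with CKI and KLK13 lower with either agent. KLK5 (chr19:51446559-51456349, GRCh37) was 0.96, 1.05 and 1.49 CPM untreated, 2.24, 2.46 and 3.27 with vehicle, 18.7, 19.4 and 17.4 with CKI, 4.15, 3.09 and 4 with doxorubicin and 13.6, 14.5 and 15 with both. CKI raised it by 3.92 (SE 0.16, adjusted p = 1.06e-15) on the log2 scale against untreated cells and by 2.70 (SE 0.14, adjusted p = 4.05e-14) against vehicle, which itself raised it by 1.22 (SE 0.22, adjusted p = 0.000156). Doxorubicin raised it against untreated cells (1.64, SE 0.20, adjusted p = 1.7e-07), and the value against vehicle was 0.42 (SE 0.17), not called. KLK7 (chr19:51479724-51487355, GRCh37) was 56.4, 54.6 and 58.8 CPM untreated, 51.9, 53.1 and 57 with vehicle, 164, 177 and 162 with CKI, 65.3, 67.3 and 68.4 with doxorubicin and 140.0, 136 and 141 with both. The 6 libraries with CKI lay above the 9 without it. CKI raised KLK7 by 1.50 (SE 0.06, adjusted p = 4.62e-16) against untreated cells, by 1.54 (SE 0.06, adjusted p = 3.13e-16) against vehicle and by 1.09 (SE 0.06, adjusted p = 2.3e-13) on top of doxorubicin.

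KLK13 was 47.5, 47.2 and 46.1 CPM untreated, 32.7, 35.1 and 30.0 with vehicle, 13.4, 15.4 and 14.8 with CKI, 7.79, 7.14 and 7.03 with doxorubicin and 7.12, 6.47 and 5.32 with both. It was lowered by CKI (-1.76, SE 0.09, adjusted p = 1.67e-14), by doxorubicin (-2.73, SE 0.09, adjusted p = 2.15e-17) and by both (-2.91, SE 0.09, adjusted p = 9.02e-18). KLK8, whose exons overlap KLK9, was 53.4, 47.7 and 52.8 CPM untreated, 46.6, 44.5 and 51.4 with vehicle, 91.2, 97.1 and 90.8 with CKI, 16.1, 17.2 and 16.9 with doxorubicin and 28.4, 31.1 and 27.6 with both. Doxorubicin lowered KLK8 (-1.67, SE 0.08, adjusted p = 3.42e-15), and CKI gave 0.79 (SE 0.07), not called. KLK10 was 392, 336 and 389 CPM untreated, 223, 274 and 345 with vehicle, 234, 265 and 255 with CKI, 318, 299 and 319 with doxorubicin and 150.0, 135 and 136 with both, and was lower with both agents than with doxorubicin (-1.12, SE 0.10, adjusted p = 1.93e-09). KLK6 averaged 36.7 ± 4.27 CPM untreated and 116 ± 5.51 with both agents, a called rise (1.65, SE 0.08, adjusted p = 5.58e-15), and KLK11, between 22 and 37.5 CPM in the 5 group means, was called in none. Of the inhibitors, SPINK5 (LEKTI, which blocks KLK5 and KLK7) averaged 2.45 ± 0.325 CPM untreated, 1.26 ± 0.234 with CKI, 2.45 ± 0.512 with doxorubicin and 2.7 ± 0.146 with both. CKI lowered it (-1.03, SE 0.25, adjusted p = 0.000767), a call lost in 5 alternatives. SPINK6 had no count in the untreated, vehicle and CKI libraries and averaged 0.288 CPM with both agents, at least 1.75-fold above a floor of 3 counts per untreated library.

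The interaction asks whether the change made by CKI differed with and without doxorubicin. It was called for 19 of 41 members, 16 higher and 3 lower, beside 19.5% of all genes (8.56% higher and 10.9% lower). The median was 0.58 for the members and 0.04 for all genes. SPRR1A led (4.24, SE 0.28, adjusted p = 2.34e-11), followed by SPRR1B (3.96, SE 0.22, adjusted p = 9.45e-13) and IVL (2.12, SE 0.14, adjusted p = 1.64e-11). SPRR1B changed by -1.80 under CKI without doxorubicin and by 2.15 with it, so its direction turned. Involucrin moved from -0.37, a value that was not called, to 1.76. SPRR2D (1.90, SE 0.27), SBSN (1.89, SE 0.17), SPRR2A (1.65, SE 0.24), ALOXE3 (1.64, SE 0.24), KLK13 (1.58, SE 0.14), SPINK5 (1.20, SE 0.32), TGM1 (1.08, SE 0.16) and CSTA (1.03, SE 0.12) were called in the same direction, the last with its call lost in 9 alternatives. A positive value is not by itself a rise on top of doxorubicin. KLK13, TGM1 and CSTA were not called between both agents and doxorubicin, and KLK13 was 7.79, 7.14 and 7.03 CPM with doxorubicin and 7.12, 6.47 and 5.32 with both. All 5 calcium-binding members called were higher: CALML3 (1.73, SE 0.14), CALML5 (1.69, SE 0.13), S100A9 (1.57, SE 0.12), S100A14 (1.26, SE 0.08) and S100A8 (1.20, SE 0.11). The 3 lower members were KLK5 (-1.95, SE 0.23, adjusted p = 1.84e-07) and the scarce TGM5 and HRNR, whose calls were lost in 4 and 16 of 22 alternatives, and the KLK5 value became -0.73, not called, with vehicle in place of untreated cells. With that control 19 members were again called, 18 higher and 1 lower, and 17 of them were among the 19. Library size alone as the scale shifted the median of all genes by -0.14 and gave 14 higher and 5 lower.

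**Figure D4:**
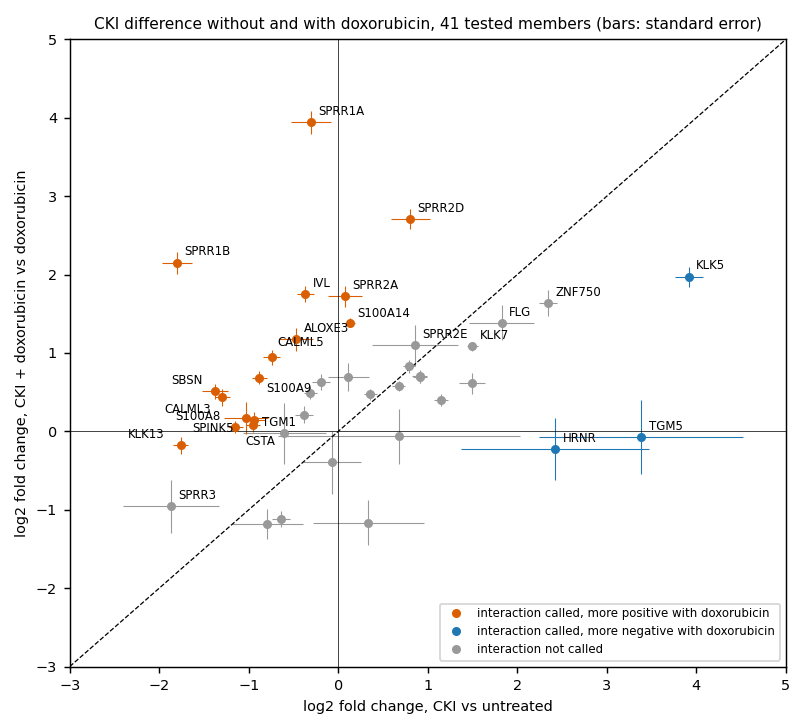
Log2 fold change of CKI against untreated cells (horizontal axis) and of CKI with doxorubicin against doxorubicin (vertical axis) for the 41 members tested in A431, with bars of 1 SE. Orange points were called higher in the interaction and blue points lower, with SPRR1A and SPRR1B farthest above the diagonal and KLK5 below it.

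The 11 members with the AP-1 letters in their promoter are set beside the 21 tested members whose promoter did not hold them. No promoter was found for SPRR2D and SPRR2E, so they are in neither set. Of all genes, CKI called 22.4% against untreated cells and 19.5% against vehicle, and doxorubicin called 37.3% and 38.5%. CKI added to doxorubicin called 14.9%. Both agents called 25.7% against CKI (16.6% higher) and 35.5% against untreated cells (21.7% higher). The interaction called 19.5% (8.56% higher). Of the 11, CKI called 1 higher and 3 lower against untreated cells (median log2 fold change -0.47), and of the 21 it called 5 higher and 4 lower (0.11). Against vehicle CKI called 1 higher and 5 lower of the 11 (-0.80) and 3 higher and 3 lower of the 21 (0.19). Doxorubicin called 3 higher and 2 lower of the 11 (0.79) and 5 higher and 5 lower of the 21 (-0.04) against untreated cells. Either agent alone thus gave calls in both directions among the 11, and against vehicle doxorubicin called 3 higher and 4 lower of them (0.01) and 4 higher and 4 lower of the 21 (-0.12). CKI added to doxorubicin called 6 higher and 2 lower of the 11 (1.17) and 3 higher and 1 lower of the 21 (0.49). Both agents against CKI called 9 of the 11, all higher (1.88), and 6 higher and 3 lower of the 21 (-0.06). Both agents against untreated cells called 7 of the 11, all higher (1.47), and 9 higher and 5 lower of the 21 (0.40). The interaction called 6 of the 11, all higher (1.64), and 7 higher and 3 lower of the 21 (-0.10). Of the 11, KRTDAP, S100A12 and SPRR3 passed the filter through groups other than CKI, and KRTDAP, FLG and S100A12 through groups other than untreated cells. This largely sets the direction of their calls against those groups. The comparisons share libraries, the counts are over few genes, 5 of the 11 are neighbours in the SPRR and IVL region, and no test was made.

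Other genes of the same programme were taken from lists of named genes, each counted against the same thresholds. All genes tested gave calls for 22.4% with CKI, 37.3% with doxorubicin, 14.9% for CKI added to doxorubicin and 19.5% in the interaction, and the lists hold few genes, so a count near those shares is not a result about its list. The median log2 fold change of the 7 lists lay between 0.12 and 0.50 with CKI, beside 0.003 for all genes, and between -0.52 and 0.66 with doxorubicin, beside 0.02. Of 20 tested neighbours in the epidermal differentiation complex that are not members, CKI called 4, all higher, against untreated cells, led by PGLYRP3, a peptidoglycan recognition protein (log2 fold change 3.07), and doxorubicin called 7 higher and 4 lower, with trichohyalin (TCHH) at 4.62 and S100A2 at -1.79. The interaction called 1 of these neighbours higher and 5 lower. Of 11 suprabasal and stress keratins, CKI called 4, all higher, led by KRT13 (1.85), and doxorubicin called 5 higher and 1 lower, with KRT6C at 2.86 and KRT17 at 2.54. The interaction called 1 of the keratins higher and 4 lower. Of 14 basal keratinocyte genes, doxorubicin called 1 higher and 6 lower, and CKI 1 higher and 1 lower. Of 26 other transcription factors and receptors of the programme, CKI called 6, all higher, against untreated cells, led by MAF (2.29) and including PRDM1 (BLIMP1, 1.49), and CKI added to doxorubicin called 3 higher and 2 lower, with the retinoid receptor RXRA at 2.99, the AP-1 subunit FOSL1 at 1.33 and OVOL2, a relative of OVOL1, at -3.04. Against vehicle, where 19.5% of all genes were called, CKI called 1 of these 26 (median 0.23 in place of 0.50). It called 2 of the keratins and 5 of the neighbours there, all of them higher.

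Of 16 other epidermal proteases and inhibitors, CKI called 4 higher and 2 lower, with the kallikrein KLK4 at 3.67, and doxorubicin 6 higher and 2 lower. Of 15 other barrier lipid and crosslinking enzymes, CKI called 3, all higher, doxorubicin 5 higher and 3 lower, and CKI added to doxorubicin 3, all higher. Of 14 junction genes, CKI called 2 higher and 1 lower, with claudin 4 (CLDN4) at 2.20 and plakophilin 3 (PKP3) at -1.44, and CKI added to doxorubicin called 4, all higher, with the desmoglein DSG3 at 1.64. Against vehicle CKI called 3 higher and 1 lower of the 16 proteases and inhibitors, 3 higher of the 15 enzymes and 1 higher of the 14 junction genes.

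In MDA-MB-231 most members were not detected at this depth. In its untreated libraries 26 of the 44 members had 0 counts in all 3, including 17 of the 32 that had at least 10 counts in every untreated A431 library, and 5 members (EVPL, PPL, FLG, TGM1 and CNFN) averaged at least 1 CPM. Untreated A431 against untreated MDA-MB-231 called 35 of the 36 members tested, 32 higher in A431 and 3 lower, beside 42.9% of all genes (22.5% higher and 20.4% lower). Members at 0 counts in MDA-MB-231 could be tested only through A431, so the direction of their calls was set by the filter. Against a floor of 3 counts per library (0.15 CPM), the level in A431 was at least 4420-fold higher for CALML5, 2180-fold for S100A9, 1060-fold for CSTA, 752-fold for CALML3, 463-fold for S100A8, 377-fold for KLK7 and 113-fold for IVL. The members lower in A431 were FLG (-4.16, SE 0.24, adjusted p = 2e-09), HRNR and TGM5, which had 1 count each over the untreated A431 libraries and averaged 0.657 ± 0.165 and 0.94 ± 0.187 CPM in untreated MDA-MB-231, and CNFN was the one not called (0.10, SE 0.21). Filaggrin was 5.2, 7.05 and 7.65 CPM in the untreated MDA-MB-231 libraries against 0.3, 0.331 and 0.435 CPM in those of A431, with no overlap. Without replicate 1 of untreated MDA-MB-231 the count was 36 and the FLG value -4.30.

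**Figure D5:**
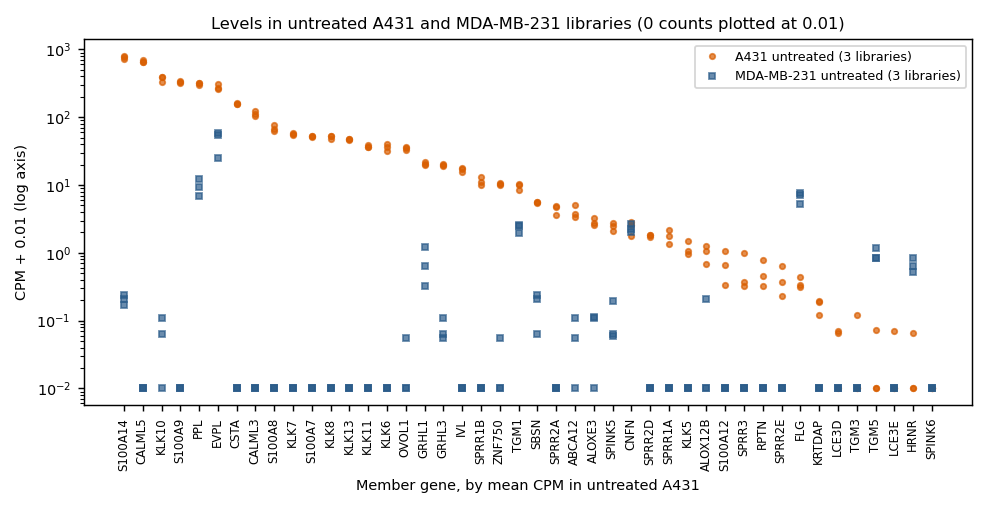
Level of each member in the 3 untreated libraries of A431 and of MDA-MB-231 (points, CPM + 0.01 on a log axis), with libraries at 0 counts drawn at 0.01. The genes are ordered by their mean in A431. Most members stand high in A431 and at 0 in MDA-MB-231, and FLG, HRNR and TGM5 lie the other way.

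In MDA-MB-231, 13 of the 44 members could be tested across the treatments. CKI against untreated cells called 4 of 13, all higher, beside 5.96% of all genes (3.76% higher and 2.21% lower). 5-FU called 6 of 13, all higher, beside 13.3% (6.01% higher and 7.31% lower), and CKI added to 5-FU called 1 higher and 3 lower, beside 9.77% (5.26% higher and 4.51% lower). The untreated libraries held 0 counts of S100A8 and S100A9, 2, 0 and 2 of ALOXE3, 3, 5 and 4 of S100A14 and 1, 5 and 4 of SBSN, so these 5 entered the test only through treated libraries, which largely sets the direction of their calls, and nothing is read from the counts of members called higher. Among the 6 members with at least 10 counts in every library, CKI called 0 (edgeR, with 4 at an unadjusted p under 0.05) and 5-FU called 1. On the 13 members of the main filter DESeq2 called 4 with CKI, the same count as edgeR there. In a fit of the compared groups alone CKI called 1 of 8 members. GRHL1 was 0.315, 1.2 and 0.638 CPM untreated, 2, 2.97 and 1.45 with CKI, 1.5, 1.94 and 1.52 with 5-FU and 2.75, 3.06 and 2.65 with both, and was higher with CKI (1.55, SE 0.37, adjusted p = 0.00582) and with 5-FU (1.18, SE 0.38, adjusted p = 0.0181). Without replicate 1 of untreated cells the GRHL1 values were 1.22 with CKI, still called, and 0.84 with 5-FU, no longer called. TGM1 was 1.94, 2.44 and 2.55 CPM untreated, 1.95, 1.67 and 1.2 with CKI, 5.79, 5.67 and 4.6 with 5-FU and 1.45, 1.73 and 1.71 with both, higher with 5-FU (1.22, SE 0.17, adjusted p = 7.62e-05) and lowered from there by CKI (-1.72, SE 0.18, adjusted p = 1.06e-05), and the first value was 1.11 without that replicate. S100A8 and S100A9 had 0 counts untreated and became detectable with CKI, at least 2.15-fold and 2.66-fold above the floor, and with 5-FU, at least 2.62-fold and 3.23-fold above it. All 4 calls were kept without that replicate, but it held 0 counts of both genes, so nothing is read from this. The CKI call was lost in 3 of 14 alternatives for S100A8 and in 1 of 14 for S100A9. ALOXE3 was called with CKI (2.59, SE 0.80, adjusted p = 0.0241) and S100A14 (2.36, SE 0.42, adjusted p = 0.000457) and SBSN (2.22, SE 0.73, adjusted p = 0.0204) with 5-FU, all at low levels, and without that replicate their values were 3.00, 2.24 and 1.84, all still called. FLG was 10.3, 12.3 and 10.7 CPM with CKI, and its value of 0.75 (SE 0.15) was under the fold threshold, as it was without that replicate (0.60).

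The change made by CKI differed between the lines for 7 of 36 members tested, 2 higher in A431 and 5 lower, beside 18.5% of all genes (8.87% higher and 9.62% lower). FLG was the better measured of the 2 higher ones (1.09, SE 0.35, adjusted p = 0.0196), but its call was lost in 5 of 21 alternatives, with a lowest value of 0.72 with vehicle as the A431 control, under which 3 members were called, all lower. The count was 6, with 3 in each direction, and the FLG value 1.22, without replicate 1 of untreated MDA-MB-231. For CKI against untreated MDA-MB-231 the count was 4 with and 4 without that library, and for 5-FU it was 6 with and 5 without it, the member lost being GRHL1.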

How the data were processed

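RNA-seq reads of 27 libraries (9 groups, n = 3) were processed by the submitters, whose notes name Trim Galore 0.3.7, STAR 2.5.3a, edgeR and hg19 (GRCh37). The counting tool and annotation are not given in the sources used here. The authors deposited raw counts per Entrez gene, unstranded, and those counts were used as deposited. Of 24566 genes, 24422 matched a symbol in RefSeq (GRCh38.p14, used for names and promoters only). Positions, lengths and GC content came from a GRCh37 annotation and were found for 99.5% of genes.

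Groups came from the sample titles. Counts were tested with edgeR 4.0.16 in R 4.3.3 (filterByExpr, TMM, glmQLFit and glmQLFTest), fitting each cell line once over its groups (for comparisons between lines, the untreated and CKI libraries of both) and adjusting p-values by Benjamini-Hochberg across every gene tested. SE was taken as the size of the log2 fold change over the square root of F. Thresholds were an adjusted p under 0.05 and a log2 fold change over 1 in size. The script was tested on simulated data. Alternatives were DESeq2 1.42.0, RLE factors, library size alone, no filter, at least 10 counts in every library, the compared groups alone, adjusted p alone, vehicle in place of untreated cells, a replicate block, GC and length offsets (lowess span 0.3), 1 gene per shared Ensembl ID, and leaving out each replicate.

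All 44 members are named. Values in each A431 library are given for the transcription factors, IVL, FLG, TGM1, the SPRR2 copies and, per A431 comparison, up to 3 called members per direction of largest change among those with at least 1 CPM in every library of one compared group and groups that do not overlap. From other gene lists, at most 3 called genes per direction are named. The values of FLG, GRHL1 and TGM1 in MDA-MB-231 libraries were added after they were seen. The members and lists were chosen with earlier results of these data known. Total counts, 17757206 to 22809339 per library, set the precision, and intervals and floors (3 counts) cover counting error only.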

Additional observations from a re-analysis of the deposited data

Results flagged for a closer look

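The change made by CKI in A431 differed between cells with and without doxorubicin, by the interaction term in edgeR, for 19 members, and each is given as the difference on the log2 scale. Among envelope proteins it was 4.24 for SPRR1A, 3.96 for SPRR1B, 2.12 for IVL, 1.90 for SPRR2D, 1.89 for SBSN, 1.65 for SPRR2A and 1.03 for CSTA, and -2.65 for HRNR, which rests on 1 count in the untreated libraries. The HRNR call was lost in 16 of 22 alternatives and the CSTA call in 9 of 23. Among calcium-binding proteins it was 1.73 for CALML3, 1.69 for CALML5, 1.57 for S100A9, 1.26 for S100A14 and 1.20 for S100A8. For enzymes, proteases and inhibitors it was 1.64 for ALOXE3, 1.08 for TGM1, 1.58 for KLK13, 1.20 for SPINK5, -1.95 for KLK5 and -3.46 for TGM5, the last again on 1 count in the untreated libraries and with its call lost in 4 of 22 alternatives. The TGM1 call was lost in 3 of 23.

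The change made by CKI also differed between A431 and MDA-MB-231 for 7 members. The difference was 1.09 for FLG (adjusted p = 0.02 by edgeR) and 3.52 for TGM5. It was -6.81 for S100A8, -6.85 for S100A9, -4.03 for CSTA, -3.04 for ALOXE3 and -2.47 for ALOX12B, fitted values for genes with few or no counts in untreated MDA-MB-231, whose size depends on the prior count and bounds nothing. Of 21 alternatives, the call was lost in 15 for ALOX12B, in 6 for CSTA and in 5 each for FLG and TGM5.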

How the results depend on the processing

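Of 218 called values of single members, 165 kept their direction and their side of the thresholds under every alternative, 51 lost the call in at least 1, and 2 turned direction in at least 1. Values that were not called became so, with the same direction, in 94 cases. These cases count a value again for each alternative that called it. With vehicle in place of untreated cells the values that turned were, for CKI, -2.07 (SPRR2A), -1.94 (SPRR2D) and -2.17 (SPRR2E) and, for doxorubicin, -1.36, -1.39 and -1.14 in the same order. With adjusted p alone the counts in A431 were 31 for CKI against untreated cells, 20 for vehicle, 30 for CKI against vehicle, 36 for doxorubicin against untreated cells, 34 against vehicle, 30 for both agents against doxorubicin and 36 against CKI, and 7 for CKI in MDA-MB-231. With at least 10 counts in every library fewer members could be tested, and the counts were 15 for both agents against CKI, 1 for 5-FU, 1 for CKI added to 5-FU, 3 between the lines and 1 for the difference of the CKI change between lines. That filter left 6 members for CKI in MDA-MB-231, of which edgeR called 0 (4 had an unadjusted p under 0.05). With the main filter edgeR and DESeq2 each called 4 of 13. CKI in MDA-MB-231 called 1 member in a fit of the compared groups alone, and the line difference called 3 with vehicle as the A431 control; the cause was not tested.

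Leaving out 1 replicate at a time gave 13 to 16 calls for CKI, 6 to 7 for vehicle, 14 to 15 for CKI against vehicle, 22 to 24 for doxorubicin, 21 to 22 against vehicle, 15 to 16 for both agents against doxorubicin, 22 to 23 against CKI, 25 to 27 against untreated cells and 17 to 19 for the interaction. In MDA-MB-231 the ranges were 2 to 5 for CKI, 5 to 6 for 5-FU and 1 to 3 for CKI added to 5-FU. The CKI count was 2 without untreated replicate 2, CKI replicate 1 or CKI replicate 2, and the last was 2 without 5-FU replicate 1 or 3 and 1 without 5-FU replicate 2. The ranges were 35 to 36 between the lines and 5 to 7 for the line difference of CKI.

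Same-numbered libraries did not deviate together (correlations of -0.14 to 0.07), so the replicate numbers do not pair them, and a replicate block called 18 members in the interaction in place of 19. Depth limits HRNR, TGM3, TGM5, LCE3D, LCE3E and SPINK6, each with at most a few counts in untreated A431.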
